A study of Mus musculus with 2 samples.

Results

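The genes that load and display peptide antigens were followed through the cell classes of the adult mouse testis. The 9 genes are the class I heavy chains H2-K1 and H2-D1, their light chain B2m, the peptide transporter subunit Tap1, the class II chains H2-Aa, H2-Ab1 and H2-Eb1, the invariant chain Cd74 and the class II transactivator Ciita. They were taken by symbol, without use of any measured value, and are 9 of the 31053 genes listed in the deposited matrices. Each symbol matched 1 gene in each library. There was 1 library of testis cells with an Igf2bp1 knockout (KO), which the design text calls conditional, and 1 library from wild type testis (WT). Igf2bp1 encodes an mRNA-binding protein. Both genotypes were 8 months of age. The testes were dissociated with collagenase, hyaluronidase, trypsin and DNase, filtered, and profiled as single cells on the droplet platform of 10x Genomics. The design text speaks of 2 mice in all. The sources used here give neither the Cre line, nor the deleted exons, nor the number of animals behind each library.

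Class I molecules are displayed by most nucleated cells and show peptides made in the cytosol to CD8 T cells. A heavy chain pairs with beta-2 microglobulin, the product of B2m, after the TAP transporter has carried peptides into the endoplasmic reticulum. Class II molecules are displayed mainly by macrophages, dendritic cells and B cells, which show peptides from engulfed material to CD4 T cells. Cd74 escorts class II chains out of the endoplasmic reticulum, and Ciita switches on their transcription. In the testis, interstitial macrophages are the best known class II cells, and germ cells are known for low display of class I.

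The KO library held 98033324 unique molecular identifiers (UMIs) in 17968 barcodes and the WT library held 121257944 UMIs in 17362 barcodes, and 103 barcode sequences occurred in both. After filtering, 17703 KO and 17002 WT barcodes were kept. Clusters were formed without the antigen presentation genes and named from marker lists, so that every class name below stands for cells like that type. A name was given to 3812 KO barcodes (21.5%) and 5181 WT barcodes (30.5%). Another 7546 KO and 10630 WT barcodes resembled free RNA and are called empty-like, and 5605 KO and 299 WT barcodes are called mixed. A mixed cluster carried genes of germ and somatic cells together, or its leading genes did not all reach 2-fold over the other barcodes. Of the latter kind, a cluster held 30 KO and 196 WT barcodes and another held 631 KO and 11 WT barcodes. Both were best matched by late spermatocyte markers. The markers of a class exceeded their level in empty-like barcodes at least 2-fold for 10 of 12 markers in KO and 11 of 12 in WT for spermatogonia, and for 11 of 11 in KO and 10 of 11 in WT for macrophages. None of the 10 round spermatid markers did so in either library, so that class is the least secure. B cells were found in the KO library alone, and T or NK cells numbered 118 in KO and 4 in WT. Igf2bp1 itself stood at 20.4 UMIs per 1000000 UMIs of the class (CPM) in KO spermatogonia (95% interval 11.9 to 32.7, 17 UMIs) and at 47.4 in WT spermatogonia (38.6 to 57.6, 101 UMIs), a log2 ratio of -1.21 (-2.05 to -0.46). It was therefore lower but not at 0, against 2.66 in KO and 3.30 in WT empty-like barcodes.

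Promoter sequence shows which regulatory elements these genes hold. RefSeq promoters on GRCm38.p6 were matched for 6 of the 9 genes, and the stretches that hold the textbook elements are given here 5′ to 3′ on the gene's strand, with motif matches in capitals. The first pair carries the class I enhancer of the NF-kB type, searched as the run of letters in capitals. These are H2-K1 at chr17:34000438-34000467 on the minus strand, 120 to 91 bases before a RefSeq start, and H2-D1 at chr17:35262914-35262943 on the plus strand, 180 to 151 bases before its start. The H2-K1 stretch lies inside the full RefSeq span of that gene, 33996012 to 34000619, whose outermost start is farther upstream.
H2-K1: cccagggctGGGGATTCCCCatctccacag
H2-D1: cccagggctGGGGATTCCCCatctcctcag
The other 3 carry the Y box core GATTGG, the element bound by NF-Y in class II promoters, on either strand. They cover 150 to 2 bases before the start of B2m (chr2:122147537-122147685, plus strand), H2-Aa (chr17:34287825-34287973, minus strand) and H2-Eb1 (chr17:34305717-34305865, plus strand).
B2m: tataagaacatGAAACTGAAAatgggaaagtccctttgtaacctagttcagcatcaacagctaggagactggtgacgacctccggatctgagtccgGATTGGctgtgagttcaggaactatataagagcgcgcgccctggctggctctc
H2-Aa: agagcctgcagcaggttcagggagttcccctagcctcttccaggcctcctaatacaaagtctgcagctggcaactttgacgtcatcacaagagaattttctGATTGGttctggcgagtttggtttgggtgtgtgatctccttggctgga
H2-Eb1: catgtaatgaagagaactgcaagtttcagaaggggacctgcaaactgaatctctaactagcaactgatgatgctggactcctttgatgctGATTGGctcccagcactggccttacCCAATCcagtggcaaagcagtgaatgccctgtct
In the 250 bases before the start, searched on both strands, the class I enhancer was present in 10 of 32851 mouse promoters (0.0304%), the Y box core in 4783 (14.6%) and the interferon response motif, GAAA followed after any 2 bases by GAAA, in 978 (2.98%). B2m holds the interferon response motif as well, 139 to 130 bases before its start, and the Y box core also occurs, on the reverse strand and outside the stretches shown, in the promoters of Tap1, H2-D1 and H2-K1 (1 of its 2 listed promoters), so that all 6 matched genes hold it. A match is a description of these letters and not evidence of binding. H2-Ab1, Cd74 and Ciita had no entry in the promoter table.

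The question for each class was where these genes are expressed in the testis and whether their levels differed between the KO and the WT library. Levels are CPM, as above, with exact Poisson 95% intervals. With 1 library per genotype there is no replicate error and no test of genotype, so intervals cover counting error only. A ratio is the log2 of the KO level over the WT level with its exact 95% interval. It was called higher or lower where it reached 1.5-fold, its interval left out equality, the gene had at least 20 UMIs over both libraries and each library had at least 20 cells of the class. Which end of the transcript was sequenced is unstated in the labels, so levels are compared between classes for 1 gene and not between genes.

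**Figure D1:**
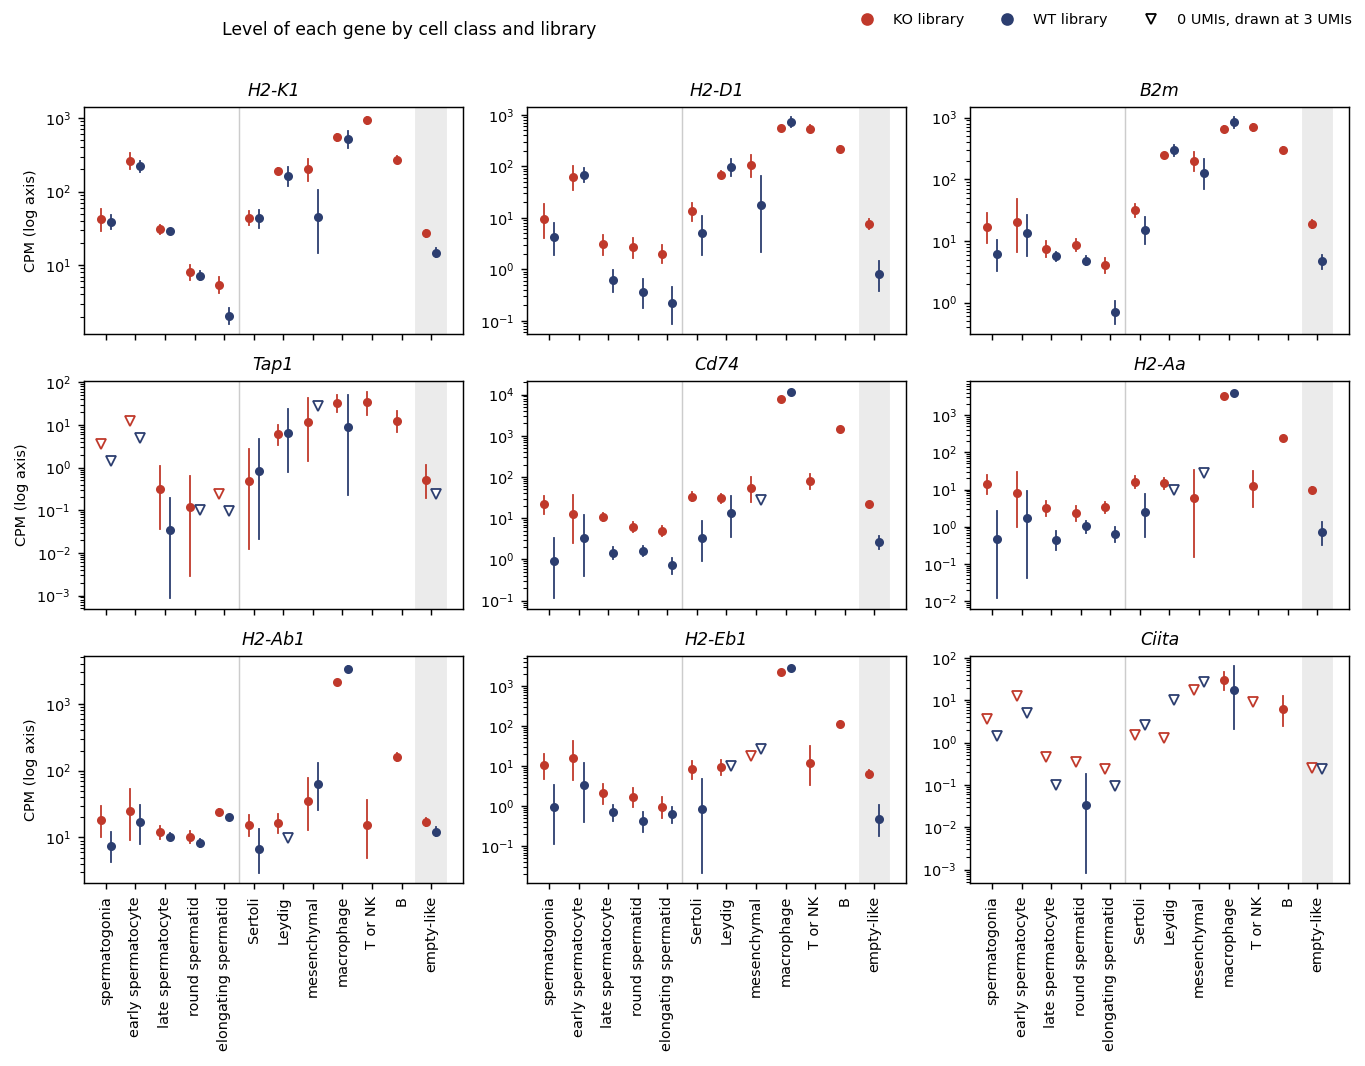
Level of each of the 9 genes, in CPM on a log axis, in each cell class of the KO library (red) and the WT library (blue), with exact Poisson 95% intervals. Open triangles mark classes with 0 UMIs, drawn at 3 UMIs, and grey shading marks empty-like barcodes. Class II genes stand highest in macrophages in both libraries, and H2-K1 and H2-D1 peak within the germ line in early spermatocytes.

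H2-K1, a classical class I heavy chain, was detected in every named class. Its highest levels were in lymphocytes and in myeloid and vascular cells. T or NK cells had 928 CPM in KO (826 to 1039) and 458 in WT (244 to 782, 4 cells). Endothelial cells had 596 in KO (16 cells) and 441 in WT (4 cells), and macrophages had 549.5 in KO (493 to 610.2) and 515 in WT (391 to 665). The intervals of KO and WT overlapped in the macrophages and in the endothelial cells. KO B cells had 271 (241 to 304), and interstitial mesenchymal cells had 201 in KO (139 to 281) and 45.0 in WT (14.6 to 105). Leydig cells, the androgen source of the testis, had 191 in KO (173 to 209) and 162 in WT (119.9 to 214). Sertoli cells, which nurse the germ cells, had 44.1 in KO (35.4 to 54.2) and 43.3 in WT (32.2 to 56.9).

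Within the germ line H2-K1 was highest in early spermatocytes, the cells entering meiosis. It had 42.1 CPM in KO spermatogonia (29.3 to 58.5) and 38.5 in WT spermatogonia (30.6 to 47.8). Early spermatocytes had 260.3 in KO (200 to 333) and 220.2 in WT (184 to 261), and the intervals of these stages did not overlap within either library. Late spermatocytes had 31.0 in KO (26.9 to 35.6) and 29.2 in WT (27.3 to 31.2). Round spermatids had 8.03 in KO (6.25 to 10.2) and 7.20 in WT (6.28 to 8.22). Elongating spermatids were lowest, at 5.44 in KO (4.22 to 6.91) and 2.06 in WT (1.59 to 2.62). Empty-like barcodes stood at 27.0 in KO (24.1 to 30.2) and 14.8 in WT (12.7 to 17.1), so the KO late spermatocytes overlapped the free RNA level, the WT late spermatocytes were above it, and spermatids of both libraries were below it.

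The peak rested on cells that switch on meiotic genes. The sub-cluster of early spermatocytes with Stra8, a gene induced at meiotic entry, together with Sycp1, a synaptonemal complex gene, had 462 CPM of H2-K1 in KO (341 to 612, 18 cells) and 345 in WT (266 to 441, 35 cells). Its Stra8 stood at 625 in KO and 900.3 in WT. A later WT sub-cluster of 26 cells, with 0 UMIs of Stra8 and 1646 CPM of Sycp1, still had 356 (248 to 495). In KO only 2 cells fell in that sub-cluster. The next WT sub-cluster, 15 cells with Piwil1, a piRNA pathway gene, at 856, had 111 (70.5 to 167), and the earlier late spermatocyte cluster had 40.1 in KO (33.0 to 48.3, 91 cells) and 39.3 in WT (35.4 to 43.6, 223 cells). Among spermatogonia the sub-clusters ranged from 15.8 to 67.0 in KO and from 5.96 to 91.9 in WT.

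H2-D1, the second classical heavy chain, followed the same course through the germ line. Early spermatocytes had 62.0 CPM in KO (34.7 to 102, 15 UMIs) and 68.9 in WT (49.5 to 93.5, 41 UMIs). Spermatogonia had 9.62 in KO (4.15 to 18.9) and 4.22 in WT (1.93 to 8.02), so the early spermatocytes were clear of them in both libraries. Its peak lay in the sub-cluster with Stra8 in KO, at 125 (66.6 to 214), and in the later sub-cluster with Sycp1 alone in WT, at 163 (92.9 to 264), where the KO library had 2 cells. After early meiosis the levels were 3.07 in KO and 0.609 in WT late spermatocytes, 2.68 in KO and 0.362 in WT round spermatids, and 2.03 in KO and 0.219 in WT elongating spermatids. Empty-like barcodes had 7.55 in KO (6.05 to 9.30) and 0.804 in WT (0.386 to 1.48), above the level of the same library's spermatids. H2-K1 and H2-D1 are close paralogs, and their transcripts of 1619 and 2102 bases share 55 of 1560 windows of 60 bases (3.53%), where reads could be split between them.

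For B2m, the light chain that class I heavy chains need, no peak in early spermatocytes was resolved at this depth. Early spermatocytes had 20.7 CPM in KO (6.71 to 48.2, 5 UMIs) and 13.4 in WT (5.81 to 26.5, 8 UMIs), and spermatogonia had 16.8 in KO (9.20 to 28.2) and 6.10 in WT (3.25 to 10.4). The intervals overlapped between these stages in each library. Empty-like barcodes had 19.0 in KO and 4.66 in WT, and the KO intervals of both stages held the KO value. Late, round and elongating stages had 7.51, 8.61 and 4.06 in KO, below it, and 5.61, 4.77 and 0.718 in WT. As a share of the UMIs of H2-K1 and B2m together, H2-K1 took 92.6% in KO early spermatocytes (83.7 to 97.6) and 94.2% in WT (89.0 to 97.5). In macrophages the same share was 45.6% in KO (42.1 to 49.2) and 37.9% in WT (30.2 to 46.1), and in Leydig cells it was 43.2% in KO (40.1 to 46.3) and 35.3% in WT (27.3 to 43.8). The share in early spermatocytes thus lay above that of macrophages and Leydig cells in each genotype, with intervals that did not overlap. It was 71.4% in KO (56.7 to 83.4) and 86.3% in WT spermatogonia (77.7 to 92.5). Late spermatocytes had 80.5% in KO (75.0 to 85.2) and 83.9% in WT (81.5 to 86.1). The WT spermatogonia and the KO late spermatocytes overlapped the early spermatocytes of their library. Sertoli cells had 58.2% in KO and 73.9% in WT, and empty-like barcodes 58.8% in KO and 76.0% in WT. Outside the germ line B2m had 655 in KO macrophages (593 to 721) and 843 in WT macrophages (682 to 1030.2), T or NK cells had 693 in KO (606 to 790.2) and 317 in WT (145 to 601, 4 cells), and Leydig cells had 251 in KO (231 to 272) and 298 in WT (239 to 366).

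Tap1, a subunit of the peptide transporter, was close to the detection limit. Macrophages had 33.0 CPM in KO (21 UMIs) and 8.87 in WT (1 UMI), Leydig cells had 6.04 in KO (14 UMIs) and 6.61 in WT (2 UMIs), and KO B cells had 12.6 (14 UMIs). Early spermatocytes, where the heavy chains peaked, had 0 UMIs of Tap1 in both libraries, with upper bounds of 15.2 in KO and 6.20 in WT. Over all germ cells 3 UMIs were seen in KO and 1 in WT. Tap1 overlaps Psmb9 on chromosome 17, and the labels do not say whether reads were counted by strand.

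**Figure D2:**
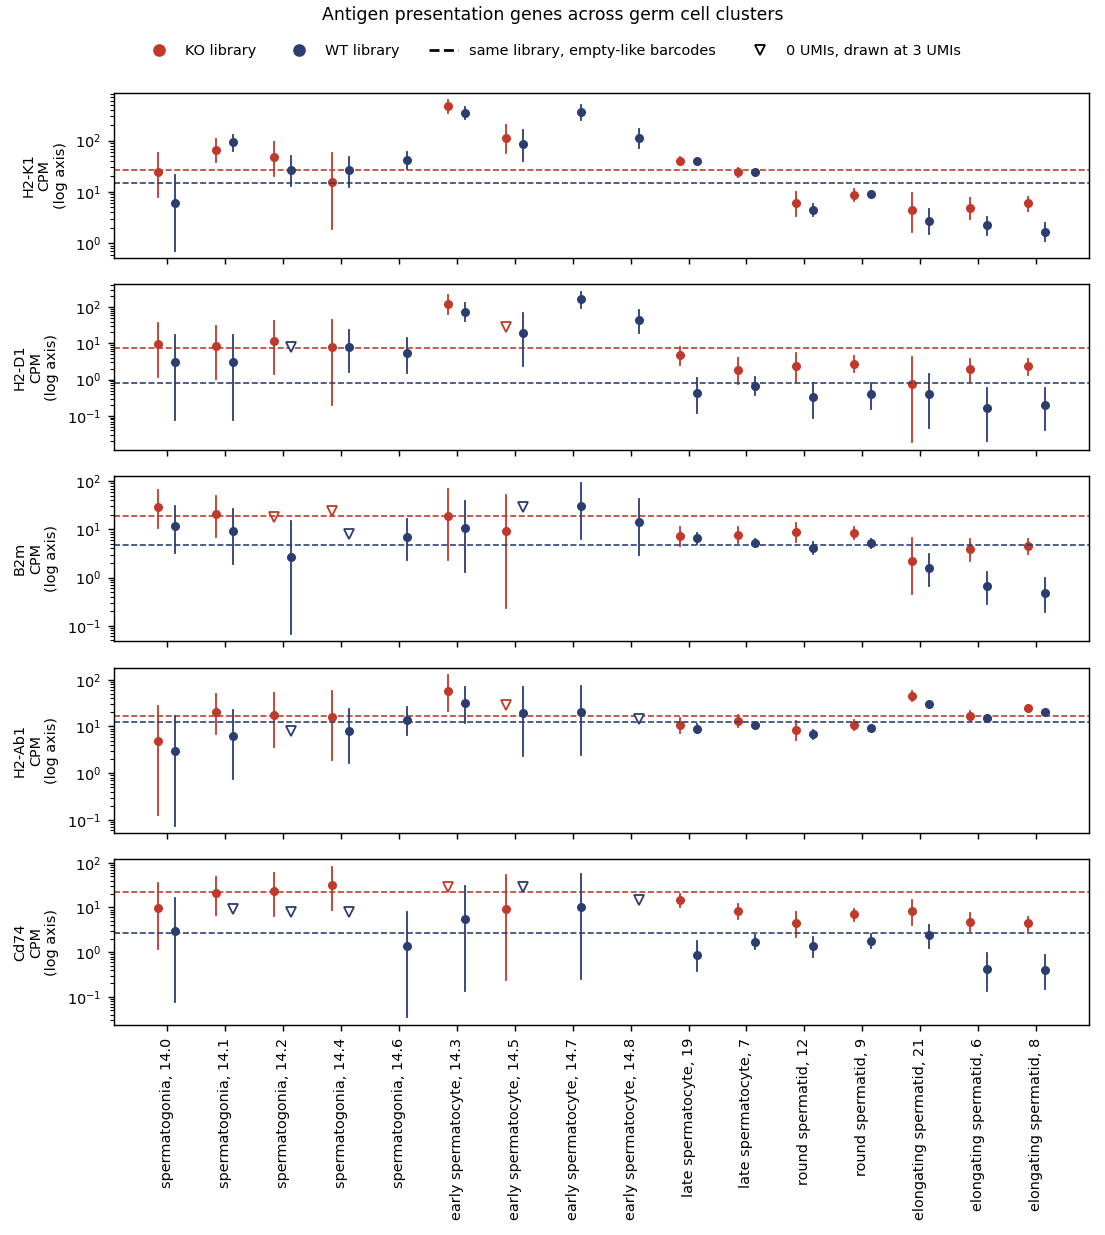
Levels of H2-K1, H2-D1, B2m, H2-Ab1 and Cd74, in CPM on a log axis, in sub-clusters of the germ line ordered by stage in the KO library (red) and the WT library (blue), with 95% intervals. Dashed lines give the level of the same library's empty-like barcodes and open triangles mark 0 UMIs, drawn at 3. The heavy chains are highest in sub-clusters of early spermatocytes, the one with Stra8 in KO and the later one with Sycp1 and no Stra8 in WT, whereas H2-Ab1 exceeds its empty-like level in the elongating spermatid cluster with 45.3 CPM in KO and 30.5 in WT.

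The KO over WT ratio of H2-K1 was close to equality in most of the named classes. The log2 ratio was 0.13 (-0.49 to 0.72) in spermatogonia, 0.24 (-0.22 to 0.69) in early spermatocytes and 0.08 (-0.14 to 0.31) in late spermatocytes. In round spermatids it was 0.16 (-0.26 to 0.55). It was 0.03 (-0.49 to 0.55) in Sertoli cells, 0.23 (-0.19 to 0.69) in Leydig cells and 0.09 (-0.31 to 0.52) in macrophages. None of these ratios was called, which does not show equal levels, and the widest interval was that of spermatogonia. H2-K1 was called higher in KO elongating spermatids, at 1.40 (0.89 to 1.91), where both levels lay under those of empty-like barcodes. In empty-like barcodes it was called higher too, at 0.87 (0.60 to 1.14). It was also called in interstitial mesenchymal cells, at 2.16 (0.79 to 3.87), on 34 UMIs in 64 KO cells and 5 UMIs in 26 WT cells. In T or NK cells the KO interval lay above the WT interval, but with 4 WT cells no ratio was taken.

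H2-D1 and B2m were called higher in KO in several classes. The log2 ratio of H2-D1 was 2.33 (1.34 to 3.34) in late spermatocytes, 2.89 (1.79 to 4.07) in round spermatids and 3.22 (1.97 to 4.67) in elongating spermatids, and it was 1.39 (0.09 to 2.96) in Sertoli cells and 2.56 (0.50 to 5.71) in mesenchymal cells. B2m gave 1.46 (0.27 to 2.67) in spermatogonia, 0.85 (0.43 to 1.27) in round spermatids, 2.50 (1.76 to 3.28) in elongating spermatids and 1.05 (0.28 to 1.89) in Sertoli cells. Empty-like barcodes moved the same way, with 3.23 (2.28 to 4.34) for H2-D1 and 2.02 (1.60 to 2.47) for B2m. In other classes no rise was called. H2-D1 gave -0.15 (-1.11 to 0.73) in early spermatocytes, -0.47 (-1.05 to 0.15) in Leydig cells and -0.42 (-0.77 to -0.06) in macrophages. B2m gave -0.25 (-0.57 to 0.09) in Leydig cells and -0.36 (-0.69 to -0.03) in macrophages. The mesenchymal H2-D1 rested on 18 UMIs in KO (106 CPM) and 2 in WT (18.0 CPM). Beyond the subtraction of free RNA given further below, its part in the higher values was not tested.

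**Figure D3:**
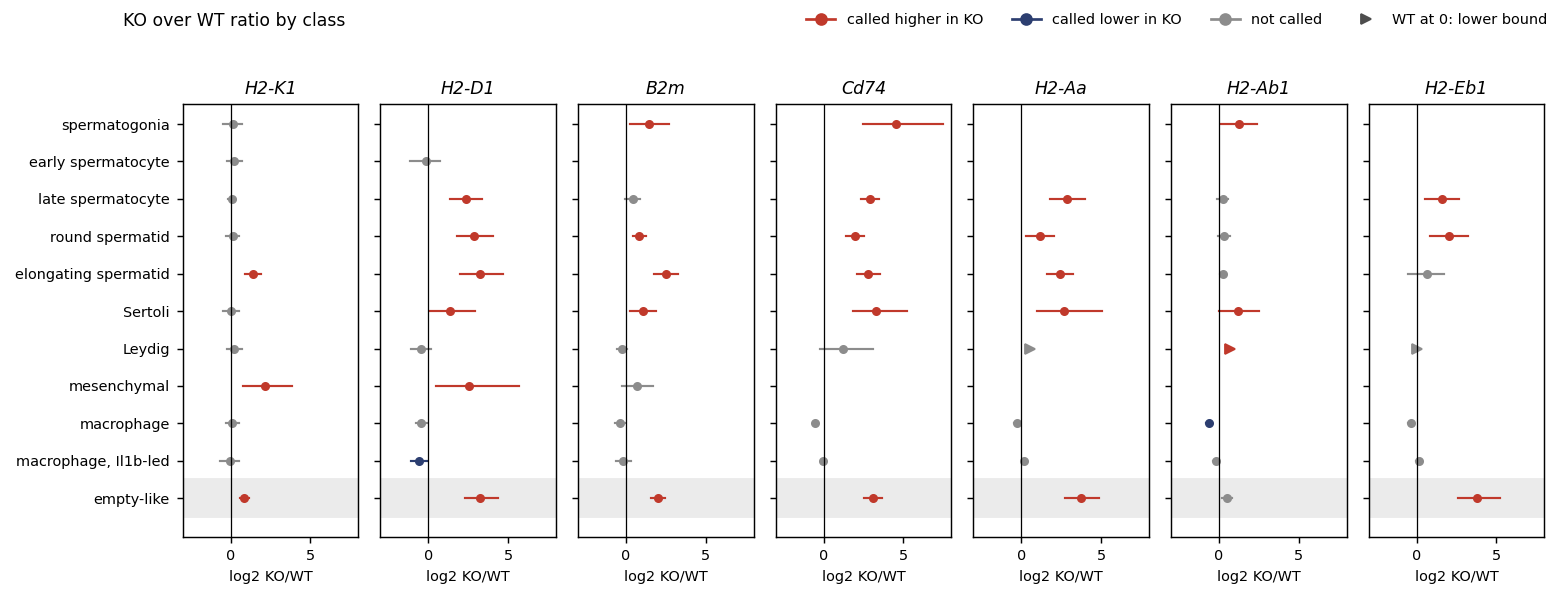
KO over WT log2 ratio of the 7 genes with enough UMIs, by class, with exact 95% intervals. Red marks a gene called higher in KO, blue one called lower, grey one not called, and a triangle a lower bound where WT had 0 UMIs. The shaded row of empty-like barcodes lies right of 0 for all 7 genes, with H2-Ab1 alone not called there.

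Class II message was concentrated in macrophages in both libraries. Cd74 had 7721 CPM in KO macrophages (7507 to 7940.3, 196 cells) and 11213 in WT macrophages (10603 to 11849, 43 cells). H2-Aa had 3187 in KO and 3912 in WT, H2-Ab1 had 2137 in KO and 3327 in WT, and H2-Eb1 had 2209 in KO and 2848 in WT. Ciita, the transactivator, had 29.8 in KO (18.0 to 46.6, 19 UMIs) and 17.7 in WT (2.15 to 64.1, 2 UMIs). It was at 0 in all other named classes apart from the KO B cells and 1 UMI in WT round spermatids, and it was at 0 in the empty-like barcodes of both libraries.

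Of the 9 genes, all with enough UMIs in macrophages, 1 was called lower in KO and 0 higher, where 3.28% of all measured genes were called lower, 2.88% higher and 6.16% in either direction. The called gene was H2-Ab1, with a log2 ratio of -0.64 (-0.80 to -0.47). Cd74 gave -0.54 (-0.63 to -0.45), H2-Aa -0.30 (-0.44 to -0.14) and H2-Eb1 -0.37 (-0.54 to -0.19), which left out equality but did not reach 1.5-fold. The median of the 9 was -0.36, against 0.09 over all genes. With the free RNA of each library subtracted, the H2-Ab1 call was lost at -0.52. Where the mixed clusters were named by their best marker list instead, Cd74 was called lower at -2.00, and where each cell was named by its own markers, at -1.69. The mix of macrophages moved with this result. Cells led by Il1b, an inflammatory cytokine, were 63 of the 196 KO macrophages and 31 of the 43 WT macrophages, and the others were led by C1q, the complement genes of resident macrophages. Within the cells led by Il1b, a split made after the data were seen, Cd74 stood at 16390.2 in KO and 17161 in WT, a log2 ratio of -0.07 (-0.16 to 0.03), and H2-Ab1 gave -0.17 (-0.34 to 0.01). H2-Aa, at 0.19 (0.04 to 0.35), and H2-Eb1, at 0.15 (-0.03 to 0.34), had the opposite sign there to that over all macrophages, and neither was called. H2-D1 was called lower there, with 474 in KO (383 to 579.9) and 711 in WT (531 to 932), a ratio of -0.59 (-1.09 to -0.07), as 1 of 7 measured genes with 0 called higher, against 4.88% of all genes called lower and 3.68% higher. Without the cell with most H2-D1 UMIs it was -0.51, past no limit. The makeup of the cells led by Il1b differed as well. A sub-cluster with S100a9, Ccl5 and Xcr1 was 26 of the 63 KO cells and 6 of the 31 WT cells. One led by Ccl4 and Cxcl2 was 10 of the 63 and 19 of the 31. The part of this mix in the ratios was not tested.

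**Figure D4:**
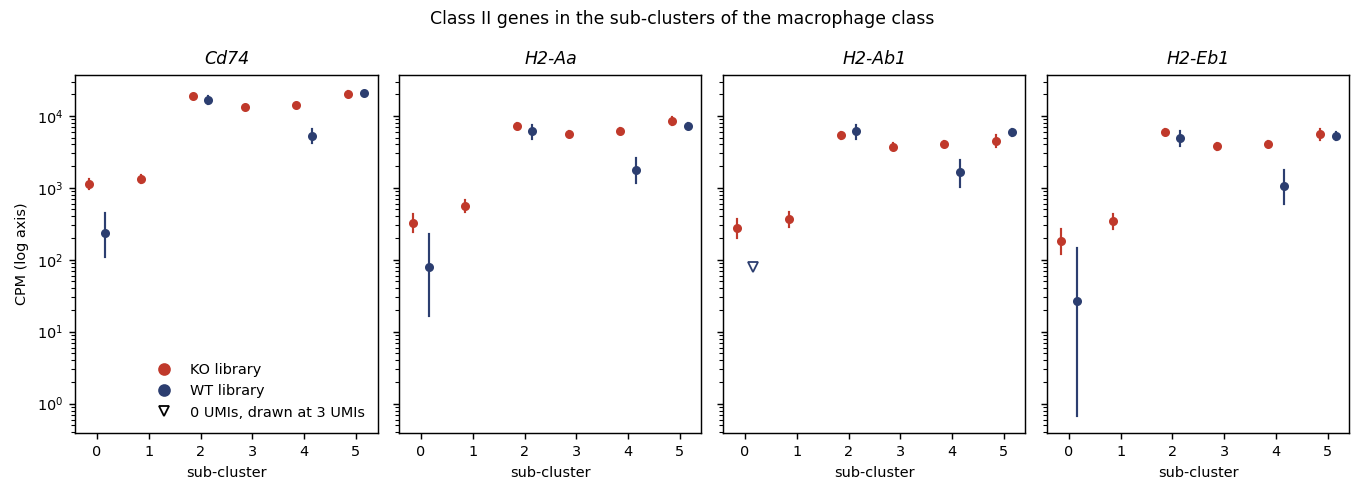
Levels of Cd74, H2-Aa, H2-Ab1 and H2-Eb1, in CPM on a log axis, in 6 sub-clusters of the macrophage class in the KO library (red) and the WT library (blue), with 95% intervals. Sub-cluster 0, led by Vsig4 and Folr2, is lowest among those with over 1 cell in both libraries, and sub-clusters 2 and 5, led by Il1b and Ccl4, have overlapping KO and WT intervals for Cd74.

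Class II levels spanned more than an order of magnitude among the macrophage sub-clusters. The sub-cluster led by Vsig4 and Folr2, genes of resident macrophages, had 1128 CPM of Cd74 in KO (966 to 1309, 52 cells) and 237 in WT (108 to 449.8, 11 cells). H2-Ab1 there had 274 in KO and 0 UMIs in WT. The sub-cluster led by Il1b had 18625 of Cd74 in KO (27 cells) and 16739 in WT (6 cells), and the one led by Ccl4 and Cxcl2, both chemokine genes, had 19974 in KO (18235 to 21833, 10 cells) and 20925 in WT (19623 to 22291, 19 cells). The intervals of KO and WT overlapped in both. The sub-cluster with S100a9, Ccl5 and Xcr1, a mixture of monocyte and dendritic cell genes, had 14192 in KO (26 cells) and 5262 in WT (6 cells), and it held 14 of the 19 Ciita UMIs of KO macrophages. A KO sub-cluster of 32 cells with Ly6d, Igkc and Vpreb3, which are B-lineage genes, had 13473, and another of 49 KO cells with spermatid genes among its leaders had 1315. Both were counted with the cells led by C1q, so that group, at 3801 in KO and 227 in WT (12 cells), was not compared.

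B cells were met in the KO library alone, 348 of them. Cd74 had 1441 CPM there (1372 to 1514), H2-Aa 244, H2-Ab1 162, H2-Eb1 112 and Ciita 6.29 (7 UMIs). Those levels lay between the macrophages and all other classes. The B cells fell into 109 with a UMI of a precursor gene (Vpreb1, Igll1, Dntt or Rag1, of the early B lineage) and 239 without, a split made after the data were seen. Class II was lower in the cells with a precursor UMI, at 322 of Cd74 (271 to 379.6) against 2159 in those without (2050.2 to 2273), and at 50.6 of H2-Aa against 368. Class I was not: H2-K1 had 322 with a precursor UMI and 239 without, and B2m had 294 with and 295 without. No WT B cells were available to set beside them.

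Barcodes were called class II positive where at least 3 UMIs fell on at least 2 of Cd74, H2-Aa, H2-Ab1 and H2-Eb1. Macrophages were positive in 138 of 196 KO cells (70.4%, Clopper-Pearson 63.5 to 76.7) and 29 of 43 WT cells (67.4%, 51.5 to 80.9). The cells led by Il1b were positive in 62 of 63 in KO and 28 of 31 in WT. Those led by C1q were positive in 76 of 133 in KO (57.1%, 48.3 to 65.7) and 1 of 12 in WT (8.33%, 0.211 to 38.5). That KO group held the sub-clusters with B-lineage and spermatid genes, so these shares were not compared. KO B cells were positive in 125 of 348 (35.9%), with 17.4% of those with a precursor UMI and 44.4% of those without. T or NK cells, which should lack class II in mice, were positive in 2 of 118 KO cells (1.69%) and in 0 of 4 WT cells. Germ cells were positive in 27 of 1770 KO cells (1.53%) and 17 of 4314 WT cells (0.394%), and in 0 of either once each cell was thinned to 1000 UMIs. The median germ cell had 13513.5 UMIs in KO and 18444 in WT, against 2945 in KO and 2449 in WT macrophages, so unthinned shares of germ cells and macrophages stand at different depths.

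Among germ cells H2-Ab1 had the most UMIs of the class II genes. It had 24.1 CPM in KO elongating spermatids (21.4 to 27.0) and 20.05 in WT (18.5 to 21.7), the log2 ratio of 0.27 (0.06 to 0.47) falling short of the 1.5-fold limit. Both were above the empty-like level of 17.2 in KO (14.9 to 19.7) and 12.2 in WT (10.4 to 14.3). In 1 elongating spermatid cluster it reached 45.3 in KO (34.6 to 58.1, 82 cells) and 30.5 in WT (25.9 to 35.7, 188 cells). Late spermatocytes had 12.1 in KO and 10.3 in WT, and round spermatids had 10.2 in KO and 8.26 in WT, at or below the free RNA level. Macrophage markers summed to 43.9 in KO elongating spermatids (11 of 11 detected) and 33.8 in WT (10 of 11 detected, Fcgr1 at 0), with C1qb the highest of them in both libraries. Their part in the H2-Ab1 values was not tested.

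The ratio of H2-Ab1 to Cd74 differed between germ cells and immune cells. As a share of the UMIs of both genes, H2-Ab1 took 83.0% in KO elongating spermatids (78.7 to 86.7) and 96.5% in WT (94.9 to 97.8). In macrophages the same share was 21.7% in KO (20.7 to 22.7) and 22.9% in WT (20.9 to 24.99), and in KO B cells it was 10.1% (8.73 to 11.6). Empty-like barcodes had 43.3% in KO (38.7 to 47.9) and 82.2% in WT (75.9 to 87.4), so the elongating spermatids exceeded the free RNA of their own library in both. KO spermatogonia, at 45.5% (28.1 to 63.6), overlapped it. Late spermatocytes did so in both libraries, at 52.7% in KO (44.4 to 60.9) and 87.6% in WT (83.7 to 90.9). Round spermatids were above it in KO, at 62.0% (53.5 to 70.0), and overlapped it in WT, at 83.7% (79.0 to 87.7). H2-Aa lay in the same direction by less: its share of H2-Aa and Cd74 together was 40.2% in KO elongating spermatids (30.6 to 50.4) and 46.5% in WT (31.2 to 62.3), against 29.2% in KO macrophages (28.1 to 30.3) and 25.9% in WT macrophages (23.8 to 28.01). Empty-like barcodes had 29.9% in KO (25.3 to 34.9) and 21.4% in WT (10.3 to 36.8), which overlapped the spermatids. H2-Eb1 went that way in WT alone. Its share with Cd74 was 16.4% in KO elongating spermatids (8.79 to 27.0), against 22.2% in KO macrophages (21.2 to 23.3). In WT it was 46.5% (31.2 to 62.3) against 20.3% in macrophages (18.3 to 22.3). Empty-like barcodes had 22.5% in KO (18.1 to 27.3) and 15.4% in WT (5.86 to 30.5) for H2-Eb1. Germ cells of the WT library held 62.0% of all its kept H2-Ab1 UMIs, but only 11.6% of its H2-Aa UMIs. They held 94729749 of its 120623958 kept UMIs of all genes.

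**Figure D5:**
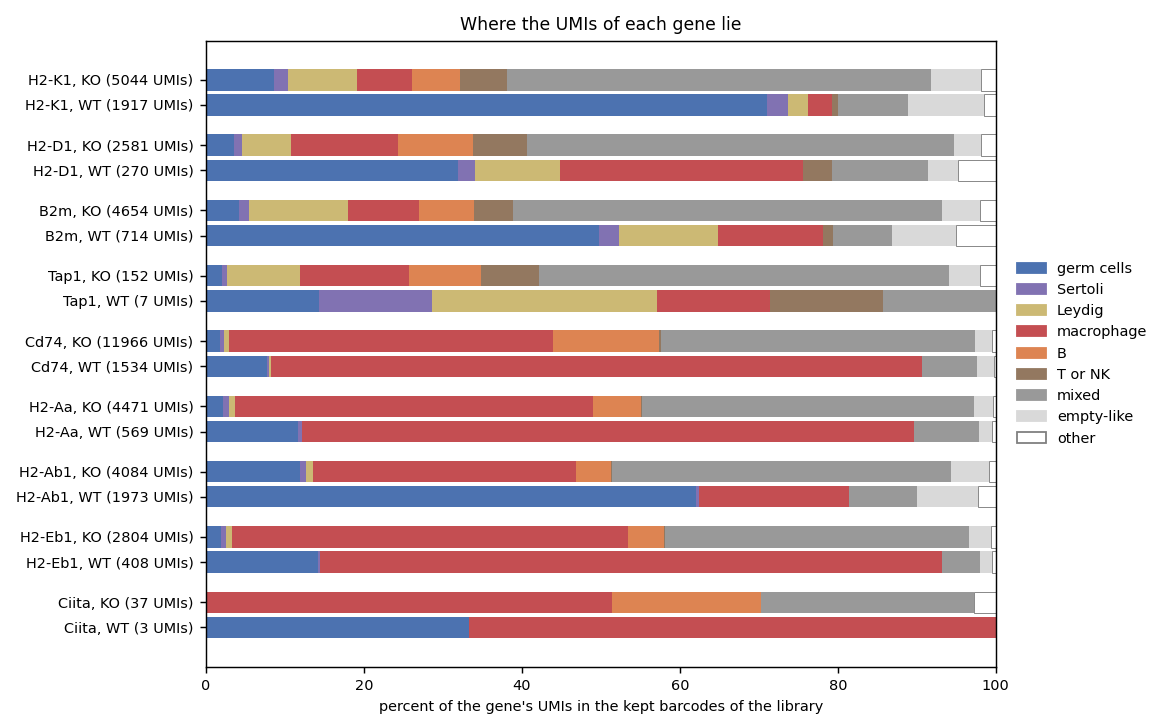
Share of each gene's UMIs that lay in each class, in percent of the kept barcodes of the library, with the KO library above the WT library for each gene. In WT, germ cells held 71.0% of H2-K1 and 62.0% of H2-Ab1 UMIs, beside 94729749 of the 120623958 UMIs of all genes. In KO the mixed barcodes held the largest share of every class I gene, beside 48991996 of the 97437140 UMIs of all genes.

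Cd74, H2-Aa and H2-Eb1 were called higher in KO germ cells at levels at or below those of free RNA. Cd74 had 21.6 CPM in KO spermatogonia (18 UMIs) and 0.939 in WT (2 UMIs), 10.9 in KO and 1.45 in WT late spermatocytes, 6.28 in KO and 1.61 in WT round spermatids, and 4.95 in KO and 0.718 in WT elongating spermatids. The log2 ratios were 4.53 (2.46 to 7.68), 2.90 (2.34 to 3.49), 1.96 (1.38 to 2.55) and 2.79 (2.07 to 3.55) in that order of stages. H2-Aa gave 2.87 (1.81 to 3.99), 1.19 (0.30 to 2.05) and 2.41 (1.61 to 3.26) from late spermatocytes to elongating spermatids, and H2-Eb1 gave 1.60 (0.51 to 2.64) in late spermatocytes and 2.03 (0.86 to 3.22) in round spermatids. Empty-like barcodes stood at 22.5 in KO (19.8 to 25.4) and 2.65 in WT (1.83 to 3.73), a ratio of 3.08 (2.56 to 3.65), and no germ stage had a KO level whose interval lay above the KO empty-like level. Of the WT UMIs of Cd74, 27 of 43 in late spermatocytes and 18 of 49 in round spermatids came from 1 cell each.

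Counts of called genes in the germ line followed the same lines. In spermatogonia 3 of 4 measured genes were called higher (B2m, Cd74 and H2-Ab1), against 4.47% of all measured genes called higher and 5.43% called lower there. Under stricter cell filters 1 gene was called in spermatogonia, and without the cell with most B2m UMIs the B2m call was lost at 1.23. Early spermatocytes had 0 of 2 called higher (5.5% of all genes), late spermatocytes 4 of 7 (5.06%), round spermatids 5 of 7 (4.17%) and elongating spermatids 5 of 7 (6.08%). None was called lower, against 6.16%, 2.72%, 2.31% and 1.29% of all genes in these 4 classes. The empty-like barcodes had 6 of 7 called higher and 0 lower, against 10.2% and 1.99% of all genes. Summed markers of other cells differed between the libraries too. The 11 macrophage markers summed to 30.1 CPM in KO germ cells (11 detected) and 14.8 in WT germ cells (10 detected, Fcgr1 at 0), and the 10 B cell markers to 16.9 in KO (10 detected) and 7.47 in WT (6 detected, with Cd79a, Cd79b, Ighm and Cd22 at 0). In KO spermatogonia the macrophage markers summed to 62.5 (9 detected, Cd163 and Fcgr1 at 0) and in WT spermatogonia to 4.69 (5 detected). Leydig markers summed to 146 in KO germ cells (9 of 10 detected) and 18.0 in WT (9 of 10 detected), T or NK markers to 67.8 in KO (12 of 12 detected) and 51.6 in WT (10 of 12 detected), and dendritic cell markers to 5.68 in KO and 6.41 in WT (6 of 9 detected in each). In both libraries the highest gene of the germ cell sums was C1qb, Pax5, Insl3, Cd3d and Zbtb46 in turn. Of the macrophage marker UMIs, 541 of 859 in KO and 1083 of 1398 in WT lay in elongating spermatids. Empty-like barcodes had 55.3 in KO and 16.8 in WT for macrophage markers, and 40.8 and 11.6 for B cell markers. They had 715 and 96.6 for Leydig, 47.4 and 39.9 for T or NK, and 8.15 and 9.33 for dendritic markers. The part of these markers in the germ cell result, and of stage mix in their sums, was not tested.

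In Sertoli cells the class II genes and H2-D1 were higher in KO at low levels. Of 6 measured genes 5 were called higher in KO, and 0 lower, against 6.81% and 2.36% of all genes. A single cluster held 879 of the 930 KO cells and 740 of the 747 WT cells. Its median barcode had 1700 UMIs in KO and 1304.5 in WT, against 1463 in KO and 1107 in WT empty-like barcodes. At clustering resolution 2, 51 KO and 7 WT barcodes were named Sertoli, too few WT cells for a ratio. Other clusters best matched by Sertoli markers were left mixed there. Cd74 had 33.2 CPM in KO (67 UMIs in 930 cells) and 3.40 in WT (4 UMIs in 747 cells), a log2 ratio of 3.29 (1.87 to 5.21), and H2-Aa had 16.3 in KO and 2.55 in WT, a ratio of 2.68 (1.009 to 5.03). H2-Ab1 had 15.4 in KO and 6.79 in WT. With the free RNA of each library subtracted 2 genes were called, and with stricter cell filters 1. The macrophage markers summed to 68.3 in KO Sertoli cells (10 of 11 detected, Cd163 at 0) and 22.9 in WT (7 of 11 detected, Adgre1, Lyz2, Fcgr1 and Cx3cr1 at 0), and the Leydig markers to 1129 in KO (9 of 10 detected) and 57.7 in WT (7 of 10 detected). Class II positive barcodes were 9 of 930 in KO (0.968%) and 0 of 747 in WT, which allows up to 0.402%. Beyond the subtraction above, the part of free RNA and of other cells in these values was not tested.

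In Leydig cells 1 of 7 measured genes was called higher and 0 lower, against 4.11% and 2.41% of all genes. It was H2-Ab1, with 38 UMIs in 370 KO cells and 0 in 43 WT cells, at least 1.65-fold higher against a floor of 3 counts per library. Of the 38 UMIs 17 lay in 1 cell, and without it the call was lost. H2-Aa was at least 1.48-fold higher on the same footing, with 16 of its 34 KO UMIs in 1 cell, and was not called. Macrophage markers summed to 72.5 CPM in KO Leydig cells (10 of 11 detected, Cd163 at 0) and 9.92 in WT (2 of 11 detected), and their part was not tested. The class I genes of Leydig cells did not reach the limit in either direction. In mesenchymal cells 2 of 3 measured genes, H2-K1 and H2-D1, were called higher and 0 lower, against 12.4% and 11.4% of all genes. Protamine and transition protein RNA there stood at 0.54 times the level of the same library's empty-like barcodes in KO and 1.82 times in WT. Its part in these ratios was not tested.

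Other genes of the pathways were read from 8 lists, which also hold the members. In macrophages 1 of 7 measured class II chain and editor genes was called lower, H2-Ab1 itself. The share of all genes called in macrophages, given above, was 3.28% lower and 2.88% higher. None of 5 measured class I heavy chain genes, 6 peptide loading genes, 5 immunoproteasome genes or 7 interferon gamma pathway genes was called, and none of 3 transactivators or of 1 costimulation gene. Of 3 measured class II processing genes 2 were called lower in KO. They were Ctss, the cathepsin that trims the invariant chain, with 700.2 CPM in KO and 1313 in WT (-0.91, -1.18 to -0.63), and Lgmn, an endosomal protease, with 402 in KO and 648 in WT (-0.69, -1.07 to -0.29). Within the cells led by Il1b, Ctss and Lgmn were called lower as well, at -1.14 and -1.18, as 2 of 2 measured processing genes against 4.88% of all genes. Called higher were 2 of 7 class II chain and editor genes and 1 of 5 interferon gamma pathway genes, against 3.68% of all genes. H2-Ob, an editor of class II peptides, had 22 UMIs in KO and 0 in WT. H2-DMa, which loads peptides on class II, was higher there, with 464 in KO and 232 in WT (0.997, 0.24 to 1.84), as was Irf8, a myeloid transcription factor, with 363 in KO and 109 in WT (1.73, 0.68 to 2.996). The sub-clusters of the cells led by Il1b differed in share between KO and WT, as given above. Their part in these calls was not tested.

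Genes of the lists were also called in germ cells. Among early spermatocytes 1 of 4 measured peptide loading genes was called, against 5.5% of all genes called higher and 6.16% lower. It was Canx, the chaperone of nascent heavy chains, which was lower at 161 in KO and 306 in WT (-0.92, -1.46 to -0.42). Nlrc5, the transactivator of class I genes, was lower in KO elongating spermatids on 10 UMIs in KO and 56 in WT, at 0.812 in KO and 1.75 in WT (-1.11, -2.24 to -0.12). It was 1 of 8 measured transactivators called there, against 6.08% of all genes called higher and 1.29% lower. Psme1, a subunit of the proteasome activator, was called higher in KO late spermatocytes, with 3.37 in KO and 0.676 in WT, and in KO Sertoli cells, with 29.7 in KO and 10.2 in WT. Immunoproteasome genes were called higher in 0 of 3 in spermatogonia, 1 of 3 in late spermatocytes and 2 of 3 each in round and elongating spermatids, against 4.47%, 5.06%, 4.17% and 6.08% of all genes. Empty-like barcodes had 4 of 4 called higher, against 10.2% of all genes. Irf1, an interferon-induced factor, was called higher in KO elongating spermatids, at 1.46 in KO and 0.219 in WT, and it was also higher in KO empty-like barcodes (2.81). In Leydig cells 0 of 7 class I heavy chain genes, 0 of 5 immunoproteasome genes and 0 of 9 interferon gamma pathway genes were called. Of all genes 4.11% were called higher there and 2.41% lower.

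Over all kept barcodes taken as a bulk sample, all 9 genes were called higher in KO, against 27.8% of all measured genes called higher and 2.05% called lower. Cd74 had 123 CPM in KO and 12.7 in WT (log2 3.27, 3.19 to 3.35). H2-D1 had 26.5 in KO and 2.24 in WT (3.56, 3.38 to 3.75), and H2-K1 had 51.8 in KO and 15.9 in WT (1.70, 1.63 to 1.78). Tap1 had 152 UMIs in KO and 7 in WT, and Ciita 37 in KO and 3 in WT. The median of the 9 was 3.27, against 0.17 over all genes. Of the lists, 13 of 14 measured class I heavy chain genes, 5 of 9 loading genes, 5 of 5 immunoproteasome genes, 8 of 9 class II chain and editor genes and 4 of 4 class II processing genes were called higher, with 4 of 9 transactivators, 7 of 9 interferon gamma pathway genes and 2 of 5 costimulation genes. None was called lower. In such a sum more cells of a type and more RNA per cell cannot be told apart, and the makeup of the libraries differed. Germ cells held 8.64% of the H2-K1 UMIs in KO and 71.0% in WT, while mixed barcodes held 53.8% in KO and 8.97% in WT. Of the kept UMIs of all genes, germ cells held 28507772 of 97437140 in KO and 94729749 of 120623958 in WT. Mixed barcodes held 48991996 of these in KO and 9932982 in WT. Macrophages held 41.1% of the Cd74 UMIs in KO and 82.4% in WT, and KO B cells held another 13.4%. Class II positive barcodes were 1355 of 17703 in KO (7.65%, 7.27 to 8.06) and 56 of 17002 in WT (0.329%, 0.249 to 0.428), and 76.5% of those in KO were mixed barcodes.

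The genes whose levels ran most like those of each member over 20 points, each a class of 1 library, were searched among 15393 genes. These are descriptions, since the points share libraries, free RNA and depth. Nearest to Cd74 were H2-Aa (Pearson r = 0.964), Ctss (0.957) and Pf4 (0.932), and nearest to H2-Aa was H2-Eb1 (0.973). H2-Ab1 was nearest to C1qb (0.924) and only then to H2-Aa (0.882). H2-K1 and H2-D1 were nearest to each other (0.944). For B2m the nearest were Emp3 (0.959) and Arhgdib (0.956), with the immunoproteasome subunit Psmb8 at 0.952. Tap1 was nearest to S1pr1 (0.977), and Ciita to Ncf1 (0.981), a subunit of the phagocyte oxidase.

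By position, 6 of the 9 genes lie in the major histocompatibility complex on chromosome 17 of GRCm38.p6, H2-K1 at 33996012 to 34000619 and H2-D1 at 35263094 to 35267497 among them. B2m lies on chromosome 2, Ciita on chromosome 16 and Cd74 on chromosome 18. Another 140 genes of the interval from 33996012 to 37483554 were in the matrices. Of these neighbours 6.67% of 60 measured were called in spermatogonia, 10.1% of 69 in elongating spermatids and 6.52% of 46 in macrophages, in either direction, against 9.9%, 7.37% and 6.16% of all genes in the same classes.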

How the data were processed

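Raw UMI counts per gene and barcode were deposited by the authors as 1 sparse matrix per library. Per the submitters' processing notes, reads were processed with Cell Ranger 2.2.0 and STAR on mm10, whereas the matrix headers, per the file headers, name software version 3.1.0. The sources used here do not say whether introns or strand entered the count. The genes, lists and tests were chosen with earlier results of these data known.

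Barcodes were dropped below 500 UMIs or 250 genes, or above 20% of mitochondrial UMIs. The rest were scaled to 10000 UMIs and clustered with scanpy 1.11.5 and leidenalg 0.10.2 on 2000 variable genes, 30 principal components and 15 neighbours at resolution 1, leaving the listed antigen presentation genes out. Clusters were named from marker lists for 17 classes. The limits that set empty-like and mixed clusters apart, the split of macrophages by Il1b and C1q and that of B cells by precursor genes were set after the data were seen. Mixed clusters were left unnamed and no doublet caller was run. Before filtering the median barcode had 2097 UMIs in KO and 1242 in WT.

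UMIs were summed per library and class and given per 1000000 (CPM). Poisson, conditional binomial and Clopper-Pearson 95% intervals came from scipy 1.17.1, and a count of 0 was bounded by 3 counts. No model was fitted, because each genotype had 1 library, and no p-value was computed. Scaling alternatives used edgeR 4.0.16 factors. The ratio was tested on simulated data. The genes named are the 9 members, and from each list the called genes with at least 20 UMIs, up to 4 per list and class by interval bound, 5 nearest genes per member, Igf2bp1 and the markers.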

Additional observations from a re-analysis of the deposited data

Results flagged for a closer look

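H2-D1 moved in opposite directions in 2 classes. Its KO over WT log2 ratio was 3.22 in elongating spermatids, where it had 25 UMIs in KO and 7 in WT, and -0.59 in the macrophages led by Il1b, where it had 94 UMIs in KO and 52 in WT. H2-Ab1 did likewise, with a lower bound of 0.72 in Leydig cells, where it had 38 UMIs in KO and 0 in WT, and -0.64 in macrophages. The differences between these classes were not tested.

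The mixed barcodes, which entered no named class, carried class II message. In KO 18.5% of them were class II positive (17.5 to 19.5, 1036 of 5605), against 3.34% in WT (1.62 to 6.06, 10 of 299) and 0.106% of KO empty-like barcodes. Thinned to 1000 UMIs the share in KO was 1.53%. In the KO mixed cluster with macrophage markers 36.3% were positive, 128 of 353.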

How the results depend on the processing

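No paired analysis was possible because each genotype had 1 library and the labels share no replicate number, and for the same reason no library could be left out. No called ratio changed sign under the alternatives run. Counts of called genes moved as follows. With no minimum of UMIs 5 genes were called higher in spermatogonia. With stricter cell filters (at least 1500 UMIs and 500 genes, at most 10% mitochondrial) 1 was higher in spermatogonia, 1 in Sertoli cells and 0 in Leydig cells, with 1 lower in Leydig cells (H2-D1, -0.74) and 0 lower in macrophages led by Il1b. With free RNA subtracted 2 were higher in Sertoli cells and 0 in Leydig cells, and 0 were lower in macrophages and in those led by Il1b. At a 2-fold limit 0 were higher in Leydig cells, and 0 were lower in macrophages and in those led by Il1b. At clustering resolution 2 the Sertoli class held 51 KO and 7 WT barcodes, so its ratios could not be taken. With TMM or median-of-ratios scaling 2 were lower in macrophages. These scalings shifted all genes by over 0.1 in Leydig cells (0.11 and 0.12), mesenchymal cells (0.22 and 0.23), mixed barcodes (0.27 and 0.32) and all kept barcodes (0.14 and 0.17). At a limit of 5 UMIs the class II positive share was 63.3% in KO macrophages, 0.0133% in KO empty-like and 8.72% in KO mixed barcodes. Thinned to 1000 UMIs it was 59.2% in KO macrophages, 21.3% in KO B cells, 0.27% in KO Leydig cells, 0.0265% in KO empty-like, 1.53% in KO mixed and 0.673% in WT mixed barcodes. With the mixed clusters named by their best marker list, Cd74 in macrophages was -2.00 and H2-K1 -1.15, and with each cell named by its own markers Cd74 was -1.69. The Il1b alternative was chosen after seeing the data. The cause of these moves was not tested. Of single gene ratios 487 kept their call over the settings, 39 gained and 27 lost it. Tap1 had 1 WT UMI and Ciita 2 in macrophages, so their ratios there had wide intervals.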
